A study of Homo sapiens with 6 samples.

Results

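Endoplasmic reticulum (ER) and amino acid stress genes were examined in RPMI-8402, a cell line established from a human T-cell leukaemia, after lentiviral transduction with 3 constructs named control, shGATA3 and shTCF1. The shGATA3 construct encodes a hairpin against the transcription factor GATA3, and shTCF1 one against TCF7, the gene for TCF1. All cells carried an EGFP-marked lentivirus, were cultured in serum-supplemented RPMI medium, and were sorted as EGFP+ 48 h after transduction, so transduction and sort are shared by all groups. Total RNA was labelled from 100 ng per sample with Cy3 and hybridised to a 1-colour Agilent array, with 2 arrays per group and 6 in all. The 46 genes were taken from a list of known target and regulator genes, and each was represented by the probe with the highest mean intensity among those whose RefSeq accession maps to it. Of the 19722 genes named on the array, 20 were assigned to the ER arm (sensors, chaperones, and quality control) and 26 to the amino acid response arm (ATF4 and its target genes). Values are variance-stabilised log2 intensities, and each difference is tested with limma over all 31134 probes tested. A gene is said to have risen or fallen only at a Benjamini-Hochberg adjusted p below 0.05. One cell line and 2 samples per group, described in the study as independent experiments, are the limit of this material.

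The unfolded protein response is the programme by which a cell adjusts its protein-folding capacity when misfolded proteins gather in the ER. It is sensed by IRE1 (gene ERN1), which splices XBP1 mRNA, by PERK (gene EIF2AK3), which phosphorylates the initiation factor eIF2alpha, and by ATF6, which is cut in the Golgi to release a transcription factor. Spliced XBP1 and cleaved ATF6 raise the transcription of chaperones and of components that remove misfolded proteins. Phosphorylation of eIF2alpha, by PERK or by the amino acid sensor GCN2, lowers general translation but favours translation of ATF4 mRNA. ATF4 in turn activates genes of amino acid synthesis, transport and tRNA charging, and further regulators such as DDIT3 (CHOP), ATF3 and TRIB3. An array of this kind measures total mRNA, so neither XBP1 splicing, ATF6 cleavage nor ATF4 protein was measured here.

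Promoter elements known from the 2 branches are shown because they describe the genes by sequence rather than by the array values. RefSeq promoter sequence (GRCh38.p14) was at hand for 42 of the 46 genes. In the 250 bases before each start site, both strands were searched for the ER stress element (ERSE, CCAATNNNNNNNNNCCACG), for ERSE-II (ATTGGNCCACG) and for the C/EBP-ATF response element (CARE, TGATGNAA). ERSE-II holds the CCACG of ERSE and the reverse complement of its CCAAT. ERSE was found in 7 of the 20 ER arm genes and in 0 of the 22 amino acid response genes, and in 0.074% of all 35116 promoter windows of that length. ERSE-II was found in 3 ER arm genes and 0 amino acid response genes, against 0.0513% of all windows. CARE was found in 1 ER arm gene and 6 amino acid response genes, against 3.14% of all windows. A gene was counted if any of its windows held the element, and the 42 genes had 63 windows. Gene counts and window shares are therefore not in the same unit. In all, 16 of the 42 genes held any of these elements, and HERPUD1 held both ERSE-II and CARE. A match is a description of the letters in this window, and a gene without one may still carry the element elsewhere. The windows below, of which the capitals mark the element on either strand, belong to the ER chaperone gene HSPA5, to the 4 genes with an element that passed the test in some comparison (XBP1, CALR, HERPUD1 and ATF3), and to ASNS.
HSPA5, ERSE, chr9:125241371-125241429, minus strand: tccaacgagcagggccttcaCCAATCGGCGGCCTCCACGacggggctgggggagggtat
XBP1, ERSE, chr22:28800583-28800641, minus strand: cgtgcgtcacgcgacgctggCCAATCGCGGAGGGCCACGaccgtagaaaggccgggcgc
CALR, ERSE in reverse orientation, chr19:12938364-12938422, plus strand: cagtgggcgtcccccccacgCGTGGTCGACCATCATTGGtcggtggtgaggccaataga
HERPUD1, ERSE-II, chr16:56932005-56932055, plus strand: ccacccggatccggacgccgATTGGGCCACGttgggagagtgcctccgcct
HERPUD1, CARE in reverse orientation, chr16:56931946-56931993, plus strand: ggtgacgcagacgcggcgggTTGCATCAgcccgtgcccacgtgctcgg
ATF3, CARE, chr1:212565196-212565243, plus strand: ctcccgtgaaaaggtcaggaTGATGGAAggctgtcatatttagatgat
ASNS, CARE, chr7:97872449-97872496, minus strand: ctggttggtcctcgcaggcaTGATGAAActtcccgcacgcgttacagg

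The targeted genes were checked first. TCF7 fell on the shTCF1 arrays, from 13.96 and 13.91 on the control arrays to 12.58 and 12.68, a 2.47-fold decrease (log2 difference -1.31, SE 0.098, adjusted p = 0.00393). GATA3 was not lower on the arrays labelled shGATA3, at 9.46 and 9.55 against 9.54 and 9.56 on the control arrays (log2 difference -0.050, SE 0.10, adjusted p = 0.795). The name shGATA3 is therefore kept as the label of those arrays, and no direction below is read as the effect of less GATA3 mRNA. All 6 arrays were on 1 slide and in 1 scan, but the control arrays occupied slide row 2 and the hairpin arrays row 1, and the 75th percentile of intensity was 271 and 290 on the control arrays against 166 to 179 on the others before normalization. Slide row, brightness and the control group cannot be told apart. Of the cell type markers, 10 of 12 T-lineage genes were well above background on all arrays. The other 2, RAG1 and RAG2, were not well above background on every array. Of the other lineages, 4 of 7 B-cell, 3 of 6 myeloid and 3 of 5 erythroid and megakaryocytic genes measured were above background on all arrays, and the defining genes EBF1, CD33, FCGR3A and HBB were on none. The summed T-lineage signal was 16.31 to 16.36 on control, 16.80 to 17.02 on shGATA3 and 16.28 to 16.55 on shTCF1 arrays (log2). The summed B-cell signal was 11.99 to 12.91, 12.33 to 12.81 and 12.72 to 12.83, the myeloid 8.17 to 8.30, 8.26 to 8.29 and 8.22 to 8.37, and the erythroid and megakaryocytic 9.36 to 9.51, 9.48 to 9.73 and 9.81 to 9.85, in the same order. The part of these differences in the results was not tested.

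Of the 46 stress genes, 45 were tested, and all 45 were well above background on all 6 arrays. EIF4EBP1, an inhibitor of cap-dependent translation that ATF4 induces, was left out because its only probe was marked as an outlier on shTCF1 replicate 1. Its intensities before normalization were 8806 and 10780 on control, 5619 and 6296 on shGATA3 and 7744 on the remaining shTCF1 array. Replicate arrays lay close together: the median SD over the members was 0.065, 0.070 and 0.097 log2 units in the control, shGATA3 and shTCF1 groups. The widest pair belonged to SDF2L1, an ER-resident chaperone co-factor, with 14.10 and 12.67 on the shGATA3 arrays (SD 1.01). Its control values were 14.03 and 13.98 and its shTCF1 values 13.87 and 14.01, so a single array lay apart and the difference of -0.62 (SE 0.43) did not pass the test.

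**Figure D1:**
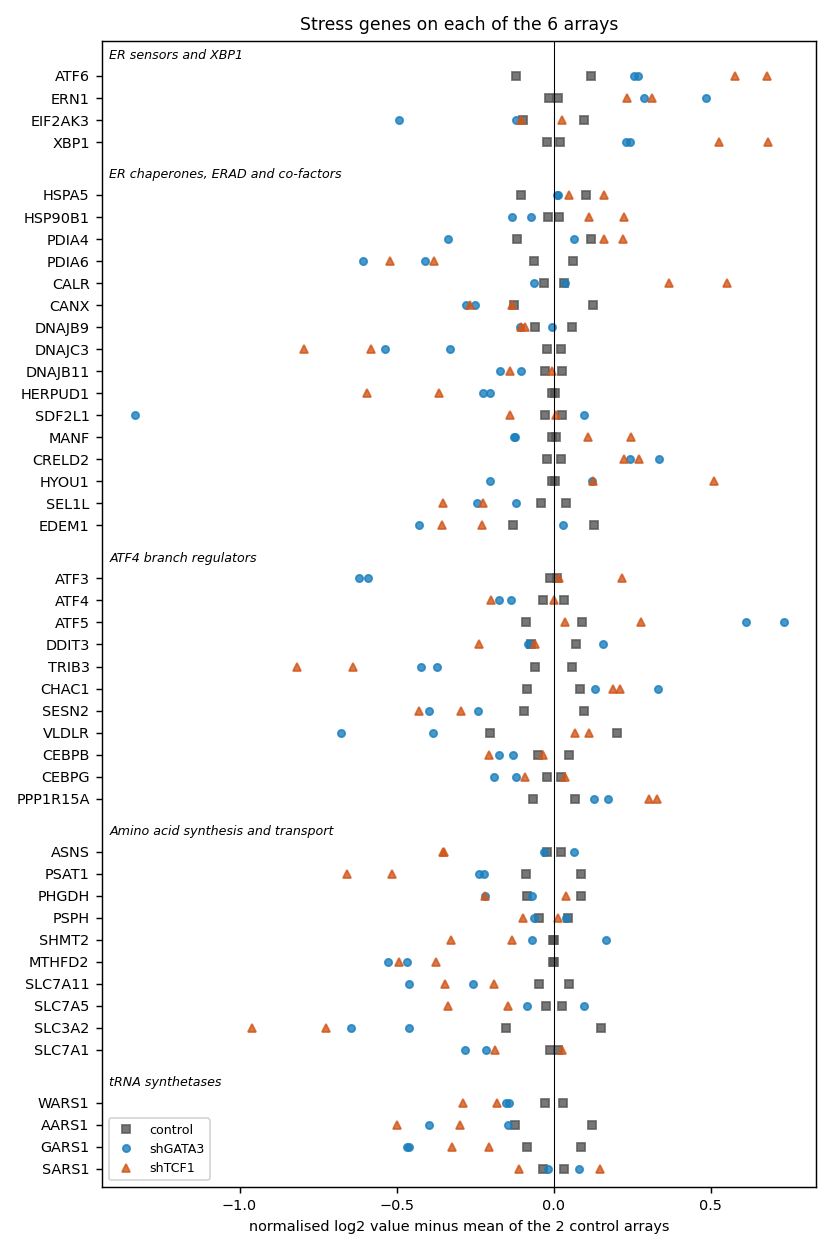
Normalised log2 value of each of the 45 tested stress genes on each array, as the distance from the mean of the 2 control arrays (x axis), with genes grouped by role (y axis). Squares are control, circles shGATA3 and triangles shTCF1 arrays; ATF6 and XBP1 on shTCF1 and ATF5 on shGATA3 lie to the right of the control squares, TRIB3, SLC3A2 and DNAJC3 on shTCF1 to the left, and 1 shGATA3 array stands apart for SDF2L1.

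On the arrays labelled shGATA3, 3 of 45 stress genes passed the test against control. That is 6.67% of them, against 6.84% of all tested probes (2.88% higher and 3.96% lower), so the share of stress genes called was near the background. In bulk RNA of this kind, fewer cells that express a gene and less of its RNA per cell cannot be told apart. ATF5 rose, ATF3 and MTHFD2 fell, and all 3 belong to the amino acid response arm. No gene of the ER arm passed the limma test, with 4 of its 20 genes (20%) at an unadjusted p below 0.05, as were 26.5% of all tested probes. On the shTCF1 arrays, 9 of 45 genes (20%) passed the test, against 16.9% of all tested probes. Of the 9, ATF6, XBP1 and CALR rose, and DNAJC3, HERPUD1, TRIB3, PSAT1, MTHFD2 and SLC3A2 fell. The ER arm contributed 5 of its 20 genes, 3 higher and 2 lower, and the amino acid response arm 4 of its 25, all lower, where 7.21% of all probes rose and 9.73% fell. Directly between the hairpins, 1 of 45 genes (2.22%), ATF3, differed, against 6.18% of all tested probes (3.58% higher and 2.6% lower on shGATA3). In all, 11 genes passed in at least 1 comparison and 34 in none. The 45 genes were all well above background on all arrays, as were 27332 of the tested probes. In a fit of those 27332 alone, 2677 passed on shGATA3, 6005 on shTCF1 and 2090 between the hairpins. These are larger shares than over all tested probes. With 75th percentile scaling in place of variance stabilisation the called probes split differently, since higher probes then made up 53.6% rather than 42.1% of those called on shGATA3 and 54.8% rather than 42.6% on shTCF1 arrays. Under quantile normalization these shares were 53.0% and 53.3%.

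**Figure D2:**
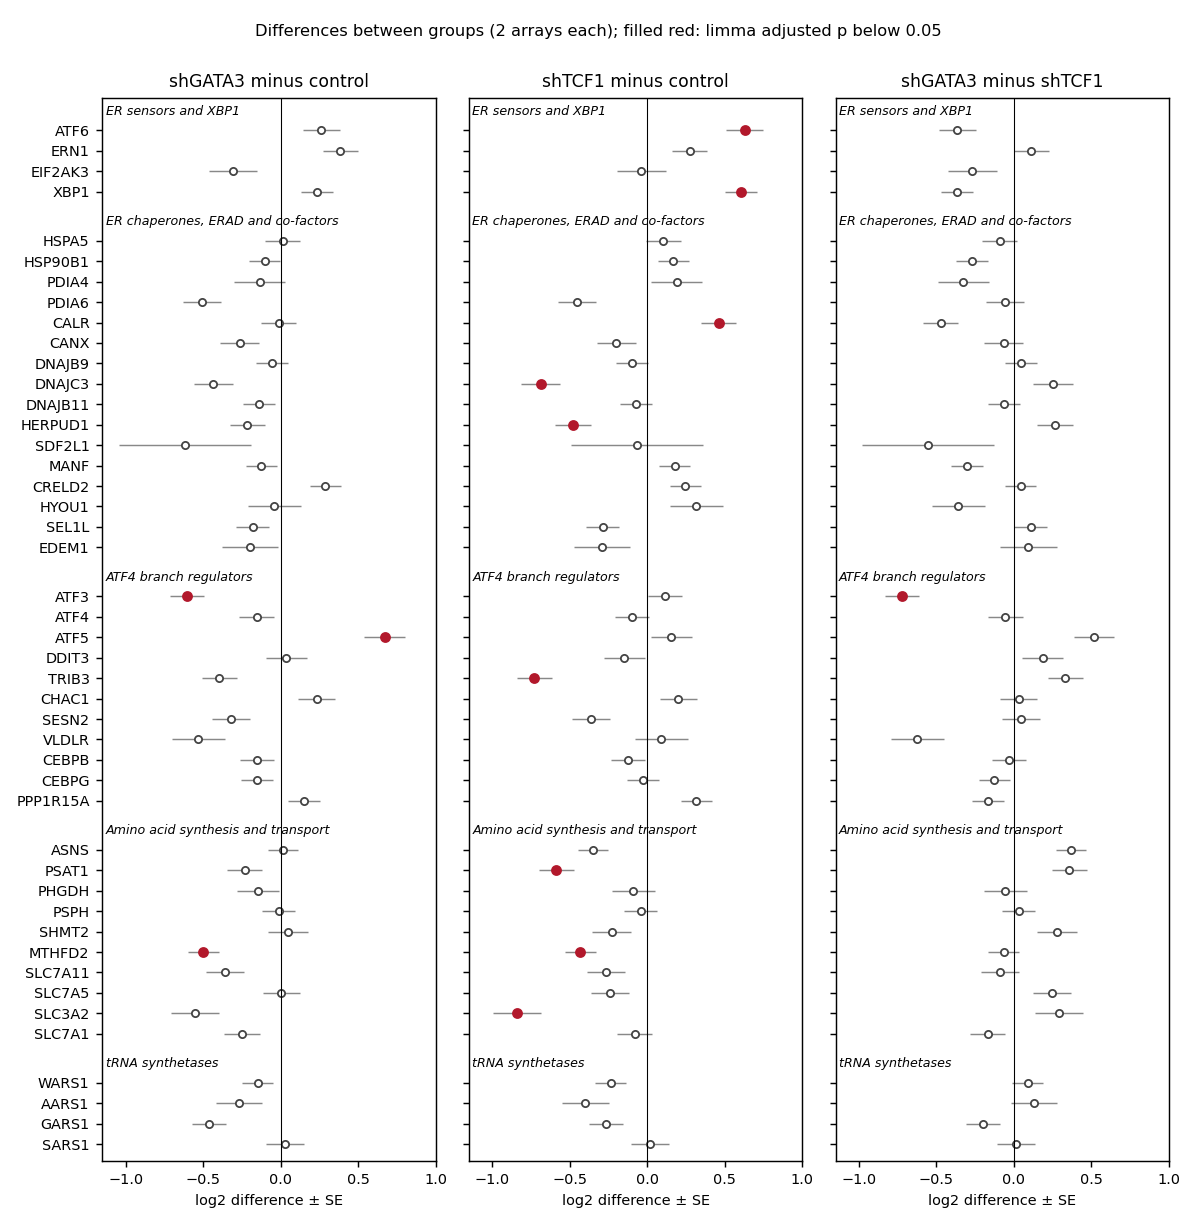
Log2 difference of each stress gene with its SE (bars) for the 3 comparisons, 2 arrays per group, genes grouped by role. Filled red points passed the limma test: 3 for shGATA3 minus control, 9 for shTCF1 minus control and 1 for shGATA3 minus shTCF1.

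Among the ER stress sensors and XBP1, 2 of 4 genes rose on the shTCF1 arrays, where 7.21% of all probes were higher, and none passed on the shGATA3 arrays, where 1 of the 4 had an unadjusted limma p below 0.05, as had 26.5% of all probes. The sensor ATF6 measured 9.41 and 9.65 on control, 9.80 and 9.79 on shGATA3 and 10.11 and 10.21 on shTCF1 arrays. Both shTCF1 arrays lay above all others, a 1.55-fold increase over control (log2 difference 0.63, SE 0.12, adjusted p = 0.0235). The shGATA3 arrays also lay above the control arrays, but the difference of 0.26 did not pass (SE 0.12, adjusted p = 0.228). XBP1, whose spliced product activates chaperone and secretory genes, measured 13.06 and 13.10 on control, 13.31 and 13.32 on shGATA3 and 13.60 and 13.76 on shTCF1 arrays. The 3 groups did not overlap and lay in that order. The shTCF1 arrays were 1.52-fold above control (log2 difference 0.60, SE 0.10, adjusted p = 0.0185), whereas the shGATA3 difference was 0.24 (SE 0.10, adjusted p = 0.213). The hairpin groups themselves differed by -0.37 for ATF6 and -0.37 for XBP1 (shGATA3 minus shTCF1, adjusted p = 0.14 and 0.102), neither of which passed. 

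ERN1, the kinase and endoribonuclease that splices XBP1, measured 4.89 and 4.86 on control, 5.36 and 5.16 on shGATA3 and 5.11 and 5.19 on shTCF1 arrays. Every hairpin array lay above both control arrays, yet neither difference passed (0.39 and 0.27, SE 0.11, adjusted p = 0.0974 and 0.143). The kinase PERK (EIF2AK3) measured 6.29 and 6.48 on control, 5.89 and 6.26 on shGATA3 and 6.28 and 6.41 on shTCF1 arrays, with overlap between control and shTCF1. Its differences were -0.31 with a 95% interval from -0.69 to 0.078, and -0.039 with an interval from -0.42 to 0.35.

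In the group of chaperones, co-chaperones and ER-associated degradation factors, 1 of 16 genes rose and 2 fell on the shTCF1 arrays, where 7.21% of all probes were higher and 9.73% lower. None passed on the shGATA3 arrays, with 3 of 16 (18.8%) at an unadjusted limma p below 0.05 against 26.5% of all probes. Calreticulin (CALR), a calcium-binding lectin chaperone of glycoproteins, measured 15.68 and 15.61 on control, 15.58 and 15.68 on shGATA3 and 16.01 and 16.20 on shTCF1 arrays. Only the shTCF1 pair stood above the remaining arrays, 1.38-fold over control (log2 difference 0.46, SE 0.11, adjusted p = 0.0431), and the shGATA3 arrays overlapped the control arrays. DNAJC3 (P58IPK), a co-chaperone of HSPA5 that also restrains PERK, measured 8.79 and 8.75 on control, 8.23 and 8.44 on shGATA3 and 8.19 and 7.97 on shTCF1 arrays. All hairpin arrays lay below control, and the 1.61-fold decrease on shTCF1 passed (log2 difference -0.69, SE 0.13, adjusted p = 0.0222) while the shGATA3 difference of -0.43 did not (adjusted p = 0.101). HERPUD1, a membrane scaffold of ER-associated degradation, measured 12.26 and 12.25 on control, 12.03 and 12.05 on shGATA3 and 11.66 and 11.89 on shTCF1 arrays. It too was lower than control on every hairpin array, by 1.39-fold on shTCF1 (log2 difference -0.48, SE 0.11, adjusted p = 0.0405) and with a log2 difference of -0.21 on shGATA3 (adjusted p = 0.287).

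HSPA5 (BiP), the major ER chaperone and the usual reporter of ER stress, measured 9.91 and 9.70 on control, 9.82 and 9.81 on shGATA3 and 9.85 and 9.96 on shTCF1 arrays. The control pair enclosed the shGATA3 pair and overlapped the shTCF1 pair. Its log2 difference was 0.013 on shGATA3, with a 95% interval from -0.27 to 0.29, and 0.10 on shTCF1, from -0.18 to 0.39. HSP90B1 (GRP94), its HSP90-class partner, measured 14.50 and 14.47 on control, 14.42 and 14.35 on shGATA3 and 14.60 and 14.71 on shTCF1 arrays, without passing (adjusted p = 0.552 and 0.281). PDIA6, a protein disulphide isomerase, came closest to the threshold against control among the chaperones that missed it, with 10.34 and 10.22 on control, 9.87 and 9.67 on shGATA3 and 9.76 and 9.90 on shTCF1 arrays. The hairpin arrays did not overlap the control arrays, but both differences missed the threshold (-0.51 and -0.45, SE 0.12, adjusted p = 0.0643 and 0.055). Of the 7 ERSE-bearing genes, XBP1 and CALR rose on the shTCF1 arrays, where 7.21% of all probes were higher. PDIA6 (-0.45), CANX (-0.20), HSP90B1 (0.17), CRELD2 (0.25) and HSPA5 (0.10) did not pass there. A link between the element and these differences was not tested. The remaining ER genes PDIA4, DNAJB9, DNAJB11, SDF2L1, MANF, HYOU1, SEL1L and EDEM1 had log2 differences from -0.62 (SDF2L1) to -0.040 (HYOU1) on shGATA3 and from -0.29 (EDEM1) to 0.32 (HYOU1) on shTCF1 arrays, none of which passed.

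The ATF4 branch regulators held the largest rise and fall among the stress genes on the arrays labelled shGATA3 that passed the test. ATF5, a bZIP factor related to ATF4 that is translated by the same mechanism, measured 9.17 and 9.35 on control, 9.87 and 9.99 on shGATA3 and 9.30 and 9.54 on shTCF1 arrays. Both shGATA3 arrays lay above all others, 1.59-fold over control (log2 difference 0.67, SE 0.13, adjusted p = 0.0413), and the shTCF1 arrays overlapped control. Against the shTCF1 arrays the ATF5 difference of 0.52 did not pass (adjusted p = 0.0817). ATF3, a stress-induced bZIP repressor, measured 12.18 and 12.20 on control, 11.57 and 11.60 on shGATA3 and 12.20 and 12.40 on shTCF1 arrays. The shGATA3 pair lay below all others, 1.52-fold below control (log2 difference -0.61, SE 0.11, adjusted p = 0.0346) and 1.65-fold below shTCF1 (log2 difference -0.72, SE 0.11, adjusted p = 0.0202). On the brightest probes, ATF3 was the single stress gene whose difference between the hairpin groups passed its own test.

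ATF3 was measured by 4 probes, and they did not all behave alike. Relative to control, the shGATA3 difference was -0.61 for the brightest probe A_23_P34915, -0.74 for A_33_P3214105 and -1.27 for A_24_P33895, and these 3 passed (adjusted p = 0.0346, 0.027 and 0.00617). A_33_P3214096, which maps to the same RefSeq transcript as the brightest probe, gave 0.34 (SE 0.16, adjusted p = 0.239), and its control pair spanned 7.68 to 8.12. On the shTCF1 arrays A_24_P33895 fell (-0.48, SE 0.12, adjusted p = 0.0444), whereas the remaining probes gave 0.12, -0.19 and 0.045 without passing. The direct comparison passed for A_24_P33895 as well (-0.79, adjusted p = 0.0192) but not for A_33_P3214105 (-0.55, adjusted p = 0.0577) nor for A_33_P3214096, which had the opposite sign (0.30, adjusted p = 0.329).

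**Figure D3:**
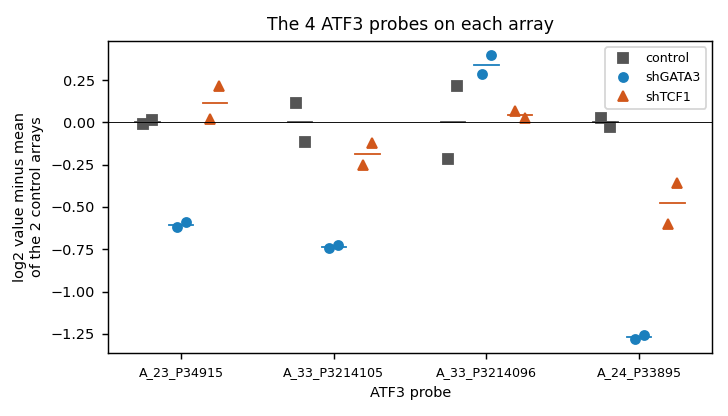
Normalised log2 value of the 4 ATF3 probes on each array, as the distance from the mean of the 2 control arrays of that probe (y axis); points are arrays and short lines group means. On 3 probes both shGATA3 arrays lie below both control arrays, and on A_33_P3214096 they lie above them.

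TRIB3, a pseudokinase induced by ATF4 and CHOP that dampens ATF4 activity, measured 12.06 and 12.18 on control, 11.70 and 11.75 on shGATA3 and 11.30 and 11.48 on shTCF1 arrays. The groups did not overlap and lay in descending order from control to shGATA3 to shTCF1. On shTCF1 the decrease was 1.66-fold (log2 difference -0.73, SE 0.11, adjusted p = 0.0143), and on shGATA3 the difference was -0.40 and missed the threshold (SE 0.11, adjusted p = 0.0943). ATF4 itself, the master regulator of this arm, measured 16.19 and 16.12 on control, 16.02 and 15.98 on shGATA3 and 15.95 and 16.15 on shTCF1 arrays. The differences were -0.15 with a 95% interval from -0.43 to 0.12, and -0.099 with an interval from -0.37 to 0.17, and neither passed. DDIT3 (CHOP), the pro-apoptotic target of the PERK branch, measured 7.86 and 7.71 on control, 7.70 and 7.94 on shGATA3 and 7.55 and 7.73 on shTCF1 arrays. The 3 groups overlapped, with 95% intervals from -0.29 to 0.36 on shGATA3 and from -0.48 to 0.18 on shTCF1. PPP1R15A (GADD34), which directs dephosphorylation of eIF2alpha, measured 6.68 and 6.81 on control, 6.92 and 6.88 on shGATA3 and 7.08 and 7.05 on shTCF1 arrays and did not pass (adjusted p = 0.387 and 0.0833). SESN2, CHAC1, VLDLR, CEBPB and CEBPG ranged from -0.53 (VLDLR) to 0.23 (CHAC1) on shGATA3 and from -0.36 (SESN2) to 0.20 (CHAC1) on shTCF1 arrays, and none passed on its brightest probe.

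Probe choice mattered for a few of these genes. For VLDLR, a lipoprotein receptor induced by ATF4, the second probe A_33_P3284925 fell on both shGATA3 (-0.85, adjusted p = 0.0234) and shTCF1 arrays (-0.80, adjusted p = 0.0162), against -0.53 and 0.090 for the brightest. These 2 probes carry different RefSeq transcripts. A second probe of SEL1L, a component of the ER degradation complex, fell on shTCF1 (-0.57, adjusted p = 0.0248) where the brightest gave -0.29. For CHAC1, a glutathione-degrading enzyme, the 2 probes gave opposite signs on shGATA3 (0.23 and -0.27) and shTCF1 arrays (0.20 and -0.25), none passing. The 2 CANX probes differed in sign on shTCF1 (-0.20 and 0.19), and the 2 HSP90B1 probes gave like signs in both comparisons with control.

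Genes of serine and one-carbon synthesis and of amino acid transport were the group in which most calls of the amino acid response arm fell on the shTCF1 arrays: 3 of 10 passed, all lower, where 9.73% of all probes were lower. MTHFD2, the mitochondrial folate enzyme, measured 12.20 and 12.21 on control, 11.74 and 11.67 on shGATA3 and 11.71 and 11.83 on shTCF1 arrays. The hairpin arrays all lay below control, and MTHFD2 was the one stress gene whose brightest probe fell in both comparisons, 1.41-fold on shGATA3 (log2 difference -0.50, SE 0.10, adjusted p = 0.0439) and 1.35-fold on shTCF1 (log2 difference -0.43, SE 0.10, adjusted p = 0.0383). The same 2 control arrays serve both comparisons, which are therefore not independent. PSAT1, the aminotransferase of serine synthesis, measured 12.94 and 12.77 on control, 12.62 and 12.63 on shGATA3 and 12.20 and 12.34 on shTCF1 arrays. Its shTCF1 pair lay lowest and fell below control (log2 difference -0.59, SE 0.11, adjusted p = 0.0244), and the shGATA3 difference was -0.23 (adjusted p = 0.256). SLC3A2 (CD98 heavy chain), which carries the SLC7A5 and SLC7A11 transporters to the plasma membrane, measured 11.51 and 11.21 on control, 10.71 and 10.90 on shGATA3 and 10.40 and 10.63 on shTCF1 arrays. It had the largest decrease of the 45 stress genes on shTCF1, 1.79-fold (log2 difference -0.84, SE 0.15, adjusted p = 0.0215), and on shGATA3 arrays, also below both control arrays, the difference of -0.55 missed the threshold (adjusted p = 0.0895).

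The light chains did not pass with it. SLC7A5, the large neutral amino acid transporter, differed by 0.0052 on shGATA3 and -0.24 on shTCF1 arrays, and SLC7A11, the cystine importer, by -0.36 and -0.27 (adjusted p from 0.135 to 0.983). ASNS, asparagine synthetase and a CARE-bearing ATF4 target, measured 11.04 and 11.08 on control, 11.12 and 11.03 on shGATA3 and 10.71 and 10.71 on shTCF1 arrays. Its shTCF1 pair lay below all others, but the difference of -0.35 just missed the threshold (SE 0.098, adjusted p = 0.0592). PHGDH, PSPH, SHMT2 and SLC7A1 ranged from -0.25 (SLC7A1) to 0.050 (SHMT2) on shGATA3 and from -0.23 (SHMT2) to -0.042 (PSPH) on shTCF1 arrays without passing. Of the 4 tRNA synthetases none passed in either comparison, with 1 of 4 (25%) at an unadjusted limma p below 0.05 in each, against 26.5% of all probes on shGATA3 and 35% on shTCF1. GARS1, glycyl-tRNA synthetase, came nearest on shGATA3 (-0.46, SE 0.11, adjusted p = 0.0639) and AARS1, alanyl-tRNA synthetase, on shTCF1 (-0.40, SE 0.15, adjusted p = 0.118), while SARS1 gave 0.030 and 0.018.

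The ER arm had a median log2 difference of -0.13 on shGATA3 and 0.033 on shTCF1 arrays, and the amino acid response arm -0.15 on both, against -0.011 and -0.020 over all tested probes. The 4 sensor genes, XBP1 among them, had medians of 0.25 and 0.44, and the 4 tRNA synthetases of -0.21 and -0.25. Over all 31134 tested probes, 16006 differences were negative on shGATA3 and 16209 on shTCF1. Within the ER arm, 14 of the 16 chaperone and degradation genes had negative differences on shGATA3, as did 9 of 16 on shTCF1. In the synthesis and transport group all 10 differences were negative on shTCF1, with a median of -0.25, and 7 of 10 on shGATA3, with a median of -0.19. Under 75th percentile scaling 9 of these 10 were negative on shTCF1 and 12 of 16 chaperone genes on shGATA3. In the deposited table of processed values, in which 4 of 6 columns followed another array of their group better than their own, the medians of the amino acid response arm (0.47 and 0.40), of its synthesis and transport group (0.41 and 0.35) and of the tRNA synthetases (1.28 and 1.18) were positive, and that of the sensor genes was -0.048 on shGATA3. The control replicate 2 column of that table followed no array closely, with correlations of 0.060 with its own array and 0.074 at best. That column enters every difference from control in the deposited table. Counts of signs over genes describe these lists and carry no test, since genes are not replicates. Against all tested probes, 1 stress gene (ATF5) lay above the 95th percentile and 0 below the 5th on shGATA3, and 1 (ATF6) above and 1 (SLC3A2) below on shTCF1. For shGATA3 minus shTCF1, 0 lay above and 3 below. These were ATF3 (-0.72), VLDLR (-0.62) and SDF2L1 (-0.55), of which only ATF3 passed the test.

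**Figure D4:**
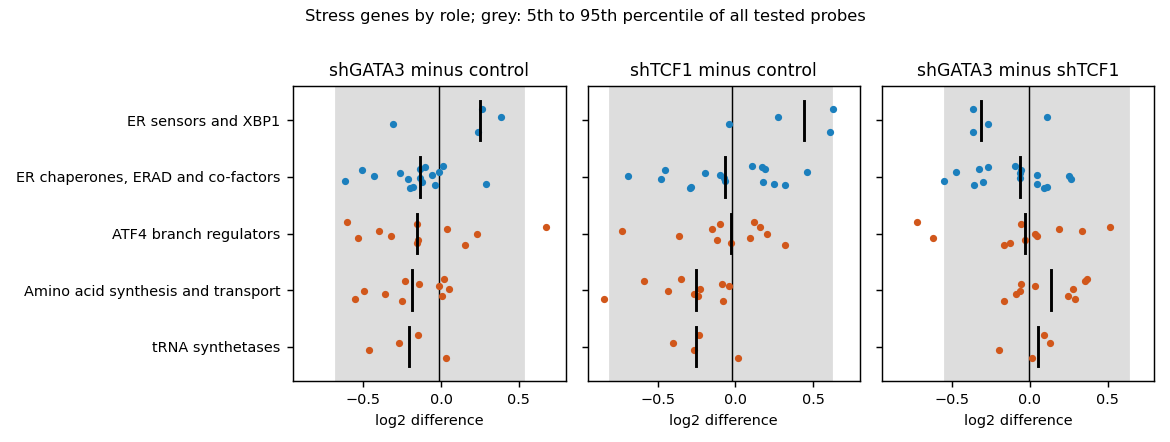
Log2 differences of the stress genes by role (points; blue ER arm, orange amino acid response arm) with the median of each role (thick line), for the 3 comparisons. The grey band spans the 5th to 95th percentile of all tested probes and the thin line their median; nearly all stress genes lie inside the band, and the synthesis and transport genes all lie left of 0 for shTCF1 minus control.

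A wider list of 71 genes of the same pathways was tested beside them (37 ER genes and 34 amino acid response genes, of which 67 were tested). Of the 67, 48 had a negative difference on shGATA3 and 46 on shTCF1, with medians of -0.16 and -0.15. These further genes of the same pathways thus leaned the same way. Over all tested probes the medians were -0.011 and -0.020. On the shGATA3 arrays 5 of 67 (7.46%) passed, all lower, against 6.84% of all probes. The largest were JDP2, a bZIP repressor related to ATF3, the tyrosyl-tRNA synthetase YARS1 and the ER-anchored factor CREB3L2. JDP2 measured 8.28 and 8.28 on control, 7.18 and 6.83 on shGATA3 and 8.04 and 8.01 on shTCF1 arrays, so that it was lowest on shGATA3, at 2.42-fold below control (log2 difference -1.28, SE 0.14, adjusted p = 0.00918) and with a difference of -1.02 from shTCF1 (adjusted p = 0.0143). CREB3L2 gave -0.68 against control and -0.66 against shTCF1 (adjusted p = 0.0277 and 0.0296). YARS1 measured 10.72 and 10.57 on control, 9.95 and 9.97 on shGATA3 and 9.78 and 9.97 on shTCF1 arrays and fell in both comparisons (-0.68 and -0.77, adjusted p = 0.0294 and 0.0137), the only one of the 67 to do so.

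On the shTCF1 arrays 8 of the 67 (11.9%) passed, 3 higher and 5 lower, against 16.9% of all probes. The higher genes were OS9, a lectin of ER-associated degradation (0.61, adjusted p = 0.0162), DERL3, a derlin of the same pathway (0.57, adjusted p = 0.0179), and KLHL24 (0.51, adjusted p = 0.0404). Among the lower were MBTPS2, the site-2 protease that completes ATF6 cleavage (-0.75, adjusted p = 0.0251), and MTHFD1L, a mitochondrial folate enzyme like MTHFD2 (-0.74, adjusted p = 0.0141). MTHFD1L measured 9.18 and 9.11 on control and 8.30 and 8.52 on shTCF1 arrays. Directly between the hairpins 3 of 67 (4.48%) passed, against 6.18% of all probes: JDP2, CREB3L2 and GPT2, a mitochondrial alanine aminotransferase (-0.77, SE 0.12, adjusted p = 0.0241), all lower on shGATA3.

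With 2 arrays per group these calls rested on each array. ATF5 and MTHFD2 on shGATA3 and CALR and HERPUD1 on shTCF1 lost their call whichever array was left out, and no stress gene kept its call in every such fit. On shGATA3 the number of stress genes that passed was 0 when either of the control arrays or shGATA3 replicate 2 was left out, and 1 without any other array, which without shGATA3 replicate 1 was none of the 3 above. On shTCF1 it was 0 without control replicate 1, 1 without control replicate 2 or either shTCF1 array, and 7 without either shGATA3 array. ATF3 lost its call between the hairpins without either shGATA3 array or shTCF1 replicate 2. An exact two-sided permutation test of 2 against 2 arrays cannot give a p below 0.333, so the calls depend on the spread that limma shares across probes.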

How the data were processed

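The scanner files deposited by the authors hold spot intensities from Agilent Feature Extraction (10.7.1.1 in the file headers, 9.1 in the submitters' processing notes). Their background-corrected processed intensity was used here. Log2-scale values were obtained by variance-stabilising normalization (a re-implementation of VSN: least trimmed squares quantile 0.9, 7 iterations, 5 strata), after 71 of 57176 probes whose spots were all marked outlying on some array were removed. The 31134 probes that both arrays of any 1 group measured well above background were tested in R 4.3.3 with limma 3.58.1, in 1 fit over the 6 arrays with group as the only term (3 residual and 2.97 prior degrees of freedom) and Benjamini-Hochberg adjustment over all tested probes. Both comparisons with control share the control arrays. Probes were named through the RefSeq accession, and 25729 probes had a symbol. The deposited table of processed log2 values by the authors, for which the study names VSN, served as an alternative. Its centring stays unknown. No column of another sample was present (0 unused). Precision is limited by the number of arrays. The genes, lists and tests were chosen with earlier results of these data known. Array values are given for each gene that passed in some comparison and for ATF4, DDIT3, ATF3, XBP1, ERN1, EIF2AK3, ATF6 and HSPA5, and for the wider list up to 3 genes each way per comparison are named. PDIA6, HSP90B1, PPP1R15A, ASNS and SDF2L1 were added after their values were seen. The test was tried on simulated data, and figures were drawn with matplotlib.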

Additional observations from a re-analysis of the deposited data

How the results depend on the processing

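With 2 arrays per group, the counts of genes that passed moved with most choices. The directions of the called genes moved little outside the deposited table, in which several turned. Of 270 values of the 27 called differences under the alternatives other than the deposited table and the fits without 1 array, 227 kept direction and call, 43 lost the call and 0 turned. Of 390 values of differences not called, 24 passed. The causes of the following changes were not tested. Members that passed (3 on shGATA3, 9 on shTCF1, 1 between the hairpins) became 8, 15 and 10 with normexp and quantile normalization, 9 on shGATA3 and 7 between the hairpins with an intensity trend, 0, 2 and 0 with no filter on dim probes, and 0 in each with the deposited table, where 1814, 2652 and 1642 probes had an unadjusted limma p below 0.05. They became 5 and 2 (shGATA3, between the hairpins) on probes above background on all arrays, 5 and 3 with VSN fitted only on those probes (an alternative chosen after seeing the data), 1 on shGATA3 with 75th percentile scaling, 1 on shGATA3 in a fit of only the 4 arrays compared, 2 between the hairpins with quantile normalization, and 0 between the hairpins with the mean of all probes of a gene. Leaving out 1 array gave 0 to 1 on shGATA3, 0 to 7 on shTCF1 and 0 to 1 between the hairpins. Wider pathway genes that passed (5, 8 and 3) became 19, 19 and 9 with normexp, 18, 15 and 8 with an intensity trend, 1, 4 and 0 with no filter, 0 in each with the deposited table, 3 on shGATA3 with 75th percentile scaling, 3 on shGATA3 and 1 between the hairpins in the fit of 4 arrays, and 5 between the hairpins with VSN on bright probes. Leaving out 1 array gave 0 to 3, 0 to 8 and 0 to 3.

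Median differences of the arms moved as follows. With the deposited table the amino acid response arm was at 0.47 on shGATA3 and 0.40 on shTCF1, and the ER arm at 0.10 on shTCF1. With the mean of all probes of a gene the amino acid response arm was at -0.23 on shTCF1 and the ER arm at -0.16 between the hairpins. Leaving out 1 array gave -0.24 to -0.059 for the amino acid response arm on shTCF1, and -0.15 to -0.033 for the ER arm on shGATA3.

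Single genes turned in sign in the deposited table, on shGATA3 for ATF3 (2.92), HERPUD1 (2.98), CREB3L2 (2.34), YARS1 (1.69), DNAJC3 (1.02), SLC3A2 (0.82), MTHFD2 (0.38), PSAT1 (0.20), XBP1 (-0.027), ATF6 (-0.069) and HSPA5 (-0.078), on shTCF1 for HERPUD1 (2.75), MTHFD1L (2.08), YARS1 (1.63), DNAJC3 (0.48), MTHFD2 (0.40), SLC3A2 (0.30) and DDIT3 (0.18), and between the hairpins for EIF2AK3 (0.11), ATF4 (0.043) and ERN1 (-0.019). Of these, ATF3, MTHFD2, CREB3L2 and YARS1 on shGATA3 had passed the main test. So had DNAJC3, HERPUD1, MTHFD2, SLC3A2, MTHFD1L and YARS1 on shTCF1. In the scanner files the differences that turned were all uncalled. With 75th percentile scaling these were CALR (0.037) and GATA3 (0.00047) on shGATA3 and EIF2AK3 on shTCF1 (0.023), with quantile normalization EIF2AK3 on shTCF1 (0.045) and ATF4 between the hairpins (0.0042), with normexp ATF4 between the hairpins (0.015), with VSN on bright probes CALR on shGATA3 (0.026), and with the mean of all probes ATF3 on shTCF1 (-0.13). Leaving out 1 array, some uncalled differences crossed 0 over the 6 fits, with ranges of -0.061 to 0.037 for CALR, -0.083 to 0.16 for DDIT3 and -0.091 to 0.12 for HSPA5 on shGATA3, -0.14 to 0.058 for EIF2AK3 and -0.20 to 0.0016 for ATF4 on shTCF1, and -0.16 to 0.045 for ATF4 between the hairpins.

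Replicate numbers are shared by the groups, but samples with the same number did not deviate together over the tested probes (correlations of -0.040, -0.0098 and 0.049). Each group gives only 1 deviation per probe, so this cannot decide whether same-numbered samples came from the same experiment. With the replicate block 1 stress gene passed on shGATA3, 6 on shTCF1 and 1 between the hairpins, and of the wider genes 1, 6 and 1. A block for slide or scan was not run, because all 6 arrays share 1 slide and 1 scan.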
